A study of Homo sapiens with 26 samples.

Results

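The short arm of human chromosome 8 holds 272 protein-coding genes in the deposited table, and 157 of them, out of 58735 genes listed in all, are described here in airway epithelial cells. Genes were taken where they lie on chromosome 8 with a start below position 45200000 (GRCh38/hg38), are annotated as protein coding, and have at least 10 counts in at least 3 of the 26 libraries. A further 109 short arm genes fell below that count minimum, 59 of them with no count in any library, and 6 genes that met the rule (FDFT1, CLDN23, GSR, PLAT, LOXL2 and BNIP3L) were left out by its wording. The first of the 157 genes starts at position 232137 and the last ends at 43202855, and 95 lie on the plus and 62 on the minus strand. Just inside the count minimum lay LPL, with 10 counts or more in 3 libraries, NPM2 in 4 and LGI3 in 5. Just outside it, with 1 such library each, lay DLGAP2, XKR6, PEBP4, STAR and ADAM18. The arm was selected on measured values, since its genes were known to be lower in CF than in WT cells, so all values of that contrast are a description of the chosen genes and no test of them.

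The arm carries genes of many kinds. It holds the cluster of receptors for the death ligand TRAIL, growth factor genes such as FGFR1 and NRG1, subunits of common transcription, repair and transport complexes, and the beta-defensin cluster. Loss of the arm is frequent in epithelial cancers, and a stretch near the centromere, at 8p11 to p12, is a known amplicon in the same tumours. Messenger RNA counts do not measure gene copies, and copy number was not analysed here.

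The RNA came from 16HBE cells, an immortalised line of human bronchial epithelial cells, grown on Transwell filters for a study of glucose and the airway barrier. WT cells (16HBE14o-, WT CFTR) and CF cells (16HBEge, a gene-edited derivative with DeltaF508 CFTR, which lacks the phenylalanine at position 508 of the chloride channel) were kept for 7 days in 5.5 mM (normal) or 17.5 mM (high) glucose. There were 6 WT and 6 CF libraries in normal glucose, 5 WT and 6 CF libraries in high glucose, and the 3 other libraries held WT cells that the labels call not polarized, also in normal glucose. Each sample pooled 2 Transwells plated at 250000 cells per well. Each genotype is a single line, so the CFTR genotype and any other difference between these lines cannot be told apart. The labels do not say that libraries of a group are separate cultures, so p-values below describe the spread among these libraries, which may be technical.

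Libraries totalled 14658319 to 20413839 counts, and no pair within a group was as alike as counting noise alone would make it. In all 4 glucose groups the libraries numbered 1 to 3 stood apart from those numbered 4 to 6. Chi-square per degree of freedom between the counts of 2 libraries, near 1 for counting noise alone, had a median of 5.42 within these sets (2.36 to 12.6) and of 24.3 between them (10.5 to 49.5). The labels do not say what the numbers mark, and results for each set alone, or with a term for the set, are given where they differ. Epithelial markers were high in every library, with EPCAM at 439 to 725 and KRT8 at 1779 to 2644 CPM, which are counts scaled to a common library size. The leukocyte gene PTPRC was at 0 in 21 libraries, and the fibroblast genes DCN and PDGFRA were at 0 in 24 and 25. COL1A1 (12.6 to 43.3 CPM) and the endothelial gene CDH5 (11.1 to 27.3 CPM) were detected in every library. The fibroblast gene COL1A2 reached at most 1.14 CPM. PECAM1, the other endothelial gene examined, was at 0 in 18 libraries and reached at most 0.402 CPM. The part of COL1A1 and CDH5 in the results was not tested.

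Across the arm, transcripts were lower in CF than in WT cells at both glucose levels, with the median gene at 0.531-fold in normal and 0.521-fold in high glucose. The 157 genes together took 1.01% ± 0.0075 (SD, n = 6) of all counts in WT cells in normal glucose and 1.03% ± 0.016 (SD, n = 5) in high glucose. For CF cells the share was 0.569% ± 0.019 (SD, n = 6) with normal and 0.553% ± 0.020 (SD, n = 6) with high glucose. The CF libraries ran from 0.527% to 0.590% and the WT libraries from 1.00% to 1.05%, so the lines did not overlap. Within CF cells the share was lower in libraries numbered 1 to 3 than in 4 to 6, without overlap. It was 0.541% to 0.568% against 0.572% to 0.590% in normal glucose, and 0.527% to 0.542% against 0.568% to 0.572% in high glucose. The not polarized WT libraries lay with the other WT libraries, at 1.04% ± 0.0080 (SD, n = 3). In bulk RNA, fewer cells expressing a gene and less RNA per cell cannot be told apart.

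The same separation was present in every library when each gene was weighted equally. The median short arm gene, relative to its mean in WT cells in normal glucose, lay between -0.92 and -0.86 on the log2 scale in the 6 CF libraries in normal glucose and between -0.96 and -0.87 in the 6 in high glucose. In the 5 WT libraries in high glucose it lay between 0.01 and 0.08. The long arm of chromosome 8, computed the same way, ran from -0.01 to 0.15 in the CF libraries and from -0.07 to 0.08 in those WT libraries. The long arm median was 0.12 to 0.15 in CF libraries numbered 1 to 3 and -0.01 to 0.06 in those numbered 4 to 6, while the short arm medians of these sets overlapped. WT libraries split the same way, with long arm medians of 0.02 to 0.06 against -0.05 to -0.04 in normal glucose and 0.05 to 0.08 against -0.07 to -0.05 in high glucose. The WT short arm medians of the sets did not overlap either. They were 0.002 to 0.023 against -0.010 to 0.001 in normal glucose, and 0.022 to 0.080 against 0.014 to 0.019 in high glucose.

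**Figure D1:**
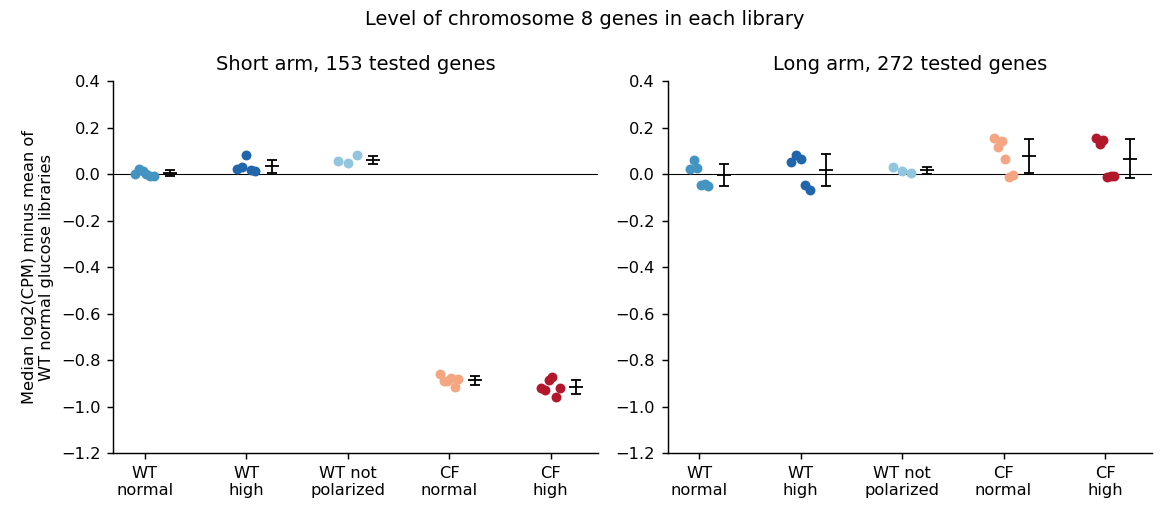
Median log2 level of short arm genes and of long arm genes in each library, relative to the mean of WT cells in normal glucose (vertical axis), by group (horizontal axis), 1 point per library, with mean and SD beside the points. All 12 CF libraries lie between -0.96 and -0.86 for the short arm, and the long arm stays between -0.07 and 0.15 in all groups.

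Of the 157 genes, 153 had enough counts in the 23 glucose libraries to enter the fit across all genes; LPL, NPM2, LGI3 and NAT2 did not. In normal glucose 142 of the 153 passed an adjusted p of 0.05 as lower in CF cells, beside 13.0% of all 16338 genes tested, and in high glucose 144 did, beside 10.6%. In the sets numbered 1 to 3 and 4 to 6 alone, 141 and 142 passed as lower in normal glucose, and 143 and 140 in high glucose. For these sets the shares of all genes called are not given here. None passed as higher at either level, beside 11.4% and 9.35% of all genes. At both levels 139 of 153 passed as lower (90.8%, beside 8.02% of all genes). The median log2 fold change was -0.91 in normal and -0.94 in high glucose, beside 0.00 and 0.01 for all genes tested. Every CF library lay below every WT library for 131 genes in normal glucose (7.06% of all genes) and for 133 in high glucose (7.23%), and for 123 at both. These counts follow from how the arm was chosen.

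Most of the genes lay in a narrow band of fold changes. In normal glucose 116 of 153 were between 0.4-fold and 0.67-fold of WT, in high glucose 121 were, and 109 were in the band at both levels. Only 7 genes in normal and 8 in high glucose were below 0.25-fold, and 7 and 5 were above 0.8-fold. The spread was wider among weakly expressed genes. Among the 66 genes above 50 CPM the fold changes in normal glucose ran from -1.29 to 0.11 on the log2 scale with a median of -0.89, and among the 25 genes under 5 CPM they ran from -6.27 to 0.80 with a median of -1.01. Genes on the plus strand (92, median -0.91) and on the minus strand (61, median -0.91) had the same median in normal glucose. The 48 genes that overlap a gene on the opposite strand, whose reads cannot be separated without a stated strand setting, had a median of -0.94, and the other 105 had -0.89. Genes named below with such an overlap include TNFRSF10B, TNFRSF10A, FGFR1, EXTL3, SOX7, PNMA2, PDGFRL and MTUS1. INTS9 also has an antisense gene, INTS9-AS1, that met the count minimum.

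The lower level extended along the whole arm and was not seen across the centromere. In 9 consecutive bins of 5 Mb from the tip of the arm, holding 7 to 31 genes each, the median log2 fold change lay between -1.03 and -0.84 in normal glucose and between -1.05 and -0.87 in high glucose. Fold change did not follow position along the arm: Spearman's rho across genes, which are not independent replicates, was -0.06 in normal and -0.02 in high glucose. On the long arm, the first 5 Mb bin (6 genes) had medians of 0.13 and 0.03, and the medians of all 19 long arm bins lay between -0.03 and 0.25. Among the 272 long arm genes tested with the same count minimum, 18 were lower and 39 higher in CF cells in normal glucose, and 17 were lower and 30 higher in high glucose.

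The genes beside the centromere show the step. HGSNAT, a lysosomal enzyme of heparan sulfate breakdown and the last short arm gene of the set (43140455 to 43202855), had 46.8 CPM in WT and 32.3 CPM in CF cells in normal glucose, a log2 fold change of -0.53 ± 0.08 (SE). Its neighbours POMK (-1.04 ± 0.12) and FNTA (-0.64 ± 0.07), a protein O-mannose kinase and a subunit of farnesyltransferase, were also lower. Across the centromere, SPIDR (47260575 to 47736306), a scaffold of recombination repair, had 71.7 CPM in WT and 77.0 CPM in CF cells, a log2 fold change of 0.10 ± 0.06. CEBPD, a transcription factor, was 0.48 ± 0.13, and PRKDC, the catalytic subunit of the DNA-dependent protein kinase, was -0.10 ± 0.12.

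**Figure D2:**
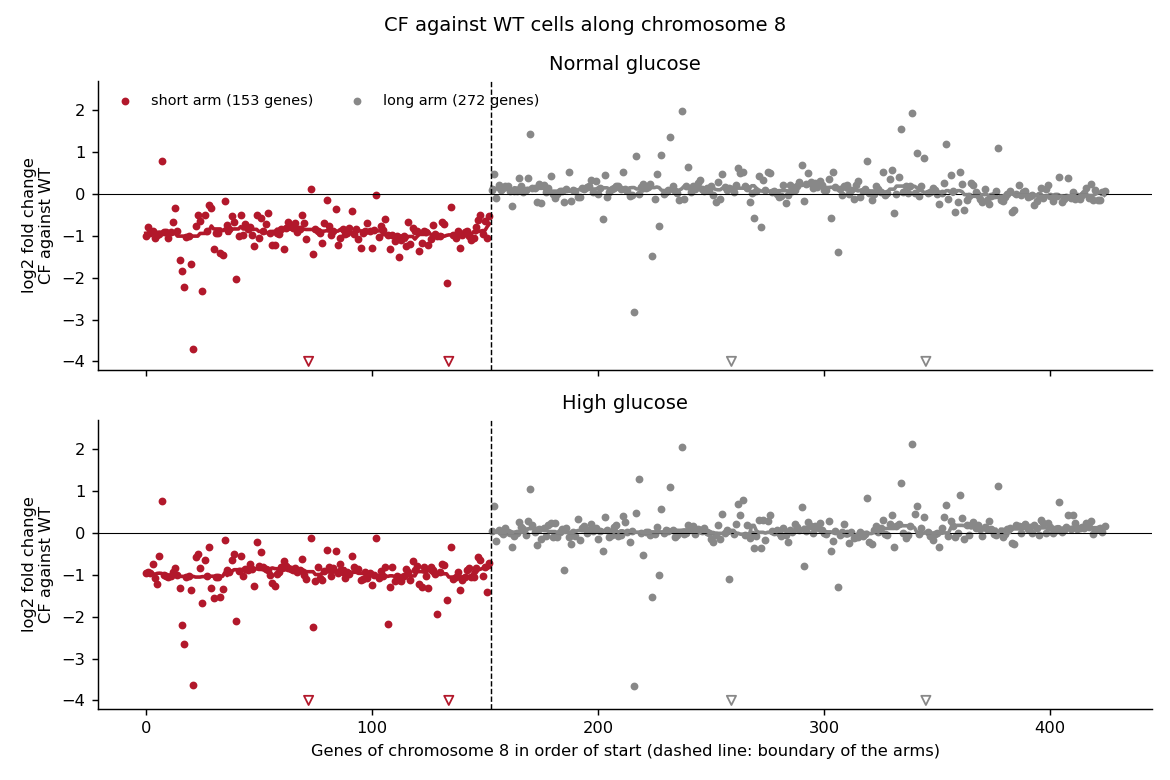
Log2 fold change of CF against WT cells for genes of chromosome 8 in order of their start (horizontal axis), in normal and high glucose, with running medians of 15 genes as lines. The running median stays near -0.9 along the short arm and near 0 along the long arm, and triangles at the lower edge mark genes below the axis limit.

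The gene INTS10 is typical of the arm. It encodes a subunit of Integrator, the complex that cleaves small nuclear RNAs and terminates stalled transcription, and lies at 19817140 to 19852083 (ENSG00000104613). In normal glucose its level was 61.4, 62.8 and 64.0 CPM (lowest, median and highest of 6) in WT cells and 28.3, 32.2 and 35.6 CPM in CF cells. In high glucose the 5 WT libraries had 70.5, 62.2, 68.5, 70.0 and 70.0 CPM, and the 6 CF libraries had 32.2, 33.1 and 37.1 CPM as lowest, median and highest. Every CF library was below every WT library, and the fold changes were -0.98 ± 0.06 and -1.02 ± 0.06 (log2, SE).

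The receptors for TRAIL, which start apoptosis on binding the death ligand or act as decoys for it, were all lower. TNFRSF10B (death receptor 5, 23020133 to 23069179) had 224, 244 and 261 CPM in WT and 122, 156 and 185 CPM in CF cells in normal glucose as lowest, median and highest. In high glucose its WT libraries had 262, 250, 239, 250 and 258 CPM and its CF libraries 121, 146 and 157 CPM. The lines did not overlap, and the log2 fold changes were -0.66 ± 0.08 and -0.83 ± 0.09. TNFRSF10A, the other receptor with a death domain, was at -0.70 ± 0.08 and -0.83 ± 0.08. The decoys TNFRSF10D (-0.80 ± 0.07 and -0.89 ± 0.08) and TNFRSF10C (-0.76 ± 0.16 and -0.85 ± 0.16) were lower by similar amounts, so all 4 receptors, signalling and decoy, were lower at both levels. Sequence is shared within this family, and how reads were divided between near-identical stretches is not given in the sources used here.

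Among 17 genes of growth factor signalling and its brakes, 15 passed as lower in normal and 14 in high glucose (medians -0.89 and -0.83). FGFR1, the receptor tyrosine kinase for fibroblast growth factors, had 23.7 ± 0.87 CPM in WT and 11.2 ± 1.5 CPM in CF cells in normal glucose (SD, n = 6 each), and 24.5 ± 1.9 (n = 5) and 14.1 ± 1.3 CPM (n = 6) in high glucose. NRG1, the neuregulin ligand of ERBB receptors, was near 1 CPM and less even. It was at -0.97 ± 0.31 in normal glucose, where the libraries of the lines overlapped, and at -2.18 ± 0.34 in high glucose, where they did not. ADAM9, a membrane metalloprotease that sheds growth factors, had 881, 962 and 1020 CPM in WT and 573, 602 and 633 CPM in CF cells in normal glucose, and its fold changes were -0.66 ± 0.05 and -0.74 ± 0.05. BMP1, the protease that trims procollagen, was at -0.58 ± 0.07 and -0.45 ± 0.07. The genes of this group outside the count of lower genes were PDGFRL and STC1 at both levels and EGR3 in high glucose.

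All 18 genes measured from the 8p11 to p12 amplicon of epithelial cancers were lower at both levels, with medians of -1.01 and -0.95. NSD3, a histone H3 lysine 36 methyltransferase, was at -0.90 ± 0.08 and -1.02 ± 0.08. ERLIN2, an endoplasmic reticulum lipid raft protein, was at -1.10 ± 0.06 and -1.14 ± 0.06. TACC1, a centrosome-associated coiled-coil protein, was at -0.74 ± 0.08 and -0.89 ± 0.08. ZNF703, a transcriptional repressor and luminal breast cancer gene, was lowest of these in normal glucose, with 6.93 ± 0.89 CPM in WT and 2.41 ± 0.51 CPM in CF cells (SD, n = 6 each).

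All 16 tested genes of DNA repair, replication and chromatin (medians -0.94 and -0.97) and all 12 of phosphatases, kinases and stress signalling (-0.88 and -1.0) passed as lower at both levels. Among them POLB, the base excision repair polymerase, was at -1.0 ± 0.14 and -0.84 ± 0.15, and WRN, the helicase lost in Werner syndrome, was at -0.59 ± 0.07 and -0.82 ± 0.08. IKBKB, the kinase that releases NF-κB, was at -0.87 ± 0.09 and -0.88 ± 0.10. Of 16 genes of transcription and RNA machinery, 15 were lower at both levels, and RBPMS was the exception. Of 21 genes of the lysosome, secretory path and membrane traffic, 20 were lower in normal glucose, all but TUSC3, and 21 in high glucose. CTSB, the lysosomal cysteine protease cathepsin B, differed less than most, with 460, 512 and 587 CPM in WT and 349, 362 and 379 CPM in CF cells in normal glucose and fold changes of -0.51 ± 0.07 at both levels.

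Metabolic and transport genes had 14 of 16 lower at each level (medians -0.89 and -1.01). SLC39A14, a zinc, iron and manganese importer, was at -0.46 ± 0.07 in normal and -0.89 ± 0.08 in high glucose. SLC25A37, the mitoferrin that carries iron into mitochondria, was at -0.69 ± 0.17 and -0.99 ± 0.17. Cytoskeletal and adhesion genes had 14 of 15 lower in normal glucose, all but ARHGEF10, and 15 in high glucose. Of the 17 listed defence genes, only SCARA3 and IDO1 reached the count minimum, and the defensins on the list did not.

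**Figure D3:**
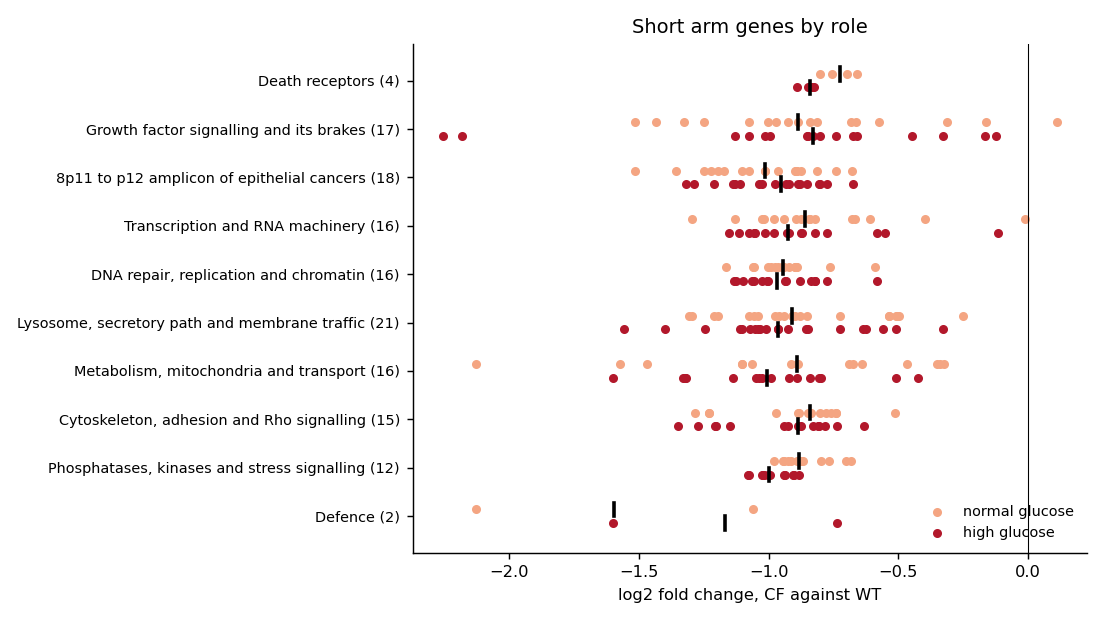
Log2 fold change of CF against WT cells (horizontal axis) for the tested short arm genes of 10 role lists (vertical axis, number of genes in brackets), in normal and high glucose, with a bar at each median. Medians of the lists lie between -1.01 and -0.73 in normal glucose, apart from the 2 defence genes.

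At the lower end, TCIM, NKX2-6 and GATA4 were near 0 in CF cells, and they were not the only ones. In normal glucose NPM2 had 43 counts in WT and 1 in CF cells, and LPL had 29 and 1, but neither entered the fit. TCIM, a small intrinsically disordered regulator linked to Wnt signalling (40153455 to 40155308), had 13.6, 14.5 and 17.8 CPM in WT and 0.0606, 0.154 and 0.279 CPM in CF cells in normal glucose. Its high glucose values were 21.0, 24.8, 19.1, 18.2 and 18.6 CPM in the WT libraries and 0.389, 0.600 and 0.796 CPM in the CF libraries. The CF libraries in normal glucose held 1 to 4 counts each, 14 in all against 1629 in WT, a ratio of CF to WT counts, scaled to library totals, of 0.00948 (95% exact binomial interval 0.00517 to 0.0160, covering counting error only). NKX2-6, a homeobox factor of heart and pharynx, had 415 counts in WT and 4 in CF cells in normal glucose (ratio 0.0106, interval 0.00288 to 0.0274) and 322 and 10 in high glucose (0.0268, 0.0128 to 0.050). GATA4, a zinc finger factor of heart and gut, had 116 and 7 counts in normal glucose (0.0666, 0.0262 to 0.142) and 106 and 9 in high glucose (0.0734, 0.0327 to 0.145). NKX2-6, GATA4, NPM2 and LPL met the count minimum only through WT libraries. In any CF library NKX2-6 had at most 5 and GATA4 at most 4 counts. Their ratios and intervals describe genes selected in this way and are no test.

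Other genes with at least 5 CPM in WT cells at one or both glucose levels lay below the band at one or both levels. PSD3, an exchange factor for ARF6, had 13.5, 17.3 and 22.3 CPM in WT and 3.56, 4.41 and 5.04 CPM in CF cells in normal glucose, a log2 fold change of -2.03 ± 0.14, with -2.09 ± 0.14 in high glucose. SLC7A2, a transporter of arginine and lysine, was at -1.47 ± 0.12 and -1.33 ± 0.13, and MSRA, which repairs oxidised methionine, at -1.57 ± 0.18 and -1.32 ± 0.18. ZDHHC2, a palmitoyltransferase, was at -1.31 ± 0.16 and -1.56 ± 0.16, and MTMR7, a phosphoinositide phosphatase, at -1.40 ± 0.21 and -1.52 ± 0.21. IDO1, the enzyme that turns tryptophan to kynurenine, had 3.20 ± 0.54 CPM in WT and 0.730 ± 0.13 CPM in CF cells in normal glucose (SD, n = 6 each), and 5.04 ± 1.1 (n = 5) and 1.65 ± 0.69 CPM (n = 6) in high glucose. SOX7, a SOX family factor under 5 CPM in every WT library but the not polarized ones, was chosen after its values were seen. It had 3.13 ± 1.1 CPM in WT and 0.664 ± 0.12 CPM in CF cells in normal glucose (SD, n = 6 each), and fold changes of -2.22 ± 0.24 and -2.66 ± 0.26.

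A few genes lay outside the shared range. MYOM2, the myomesin of the sarcomere M band, was the only gene with a positive fold change at both levels, at 0.80 ± 0.33 and 0.76 ± 0.33, and it rests on few counts. Its 6 WT libraries in normal glucose held 5 to 16 counts each and its CF libraries 7 to 17, the groups overlapped, and it did not pass the threshold at either level. It did so in high glucose with a block for the library number (0.87 ± 0.31) and in normal glucose without WT library 5 (1.03 ± 0.35).

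The clearest of the well-expressed exceptions was STC1, stanniocalcin 1, a secreted glycoprotein of calcium and phosphate balance (23841915 to 23854807). It had 71.8, 77.7 and 85.5 CPM in WT and 74.7, 83.3 and 95 CPM in CF cells in normal glucose, a log2 fold change of 0.11 ± 0.09. In high glucose the WT libraries had 66.4, 81.4, 74.3, 62.4 and 75.4 CPM and the CF libraries 54.5, 66.3 and 82.9 CPM, a log2 fold change of -0.12 ± 0.09. The groups overlapped at both levels, while the nearby NKX2-6 (23702451 to 23706598) had at most 2 counts in any CF library in normal glucose. PDGFRL, a secreted PDGF receptor-like protein, had 24.1, 28.8 and 34.5 CPM in WT and 24.2, 25.3 and 28.2 CPM in CF cells in normal glucose, with fold changes of -0.16 ± 0.09 and -0.17 ± 0.10. It overlaps MTUS1 on the opposite strand, which was at -0.74 ± 0.06 and -0.88 ± 0.06. RBPMS, an RNA-binding protein, had 4.83, 5.31 and 5.83 CPM in WT and 4.91, 5.24 and 5.87 CPM in CF cells in normal glucose, with fold changes of -0.01 ± 0.10 and -0.12 ± 0.10. These genes were not neighbours: INTS10 lies between PDGFRL and STC1, and EXTL3 (-1.07 ± 0.05 and -0.85 ± 0.06) lies between STC1 and RBPMS.

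Of the 153 tested genes, 6 did not pass as lower at either level, 5 passed in high glucose only and 3 in normal glucose only. MYOM2, STC1, PDGFRL, RBPMS, EPHX2 (-0.35 ± 0.16 and -0.43 ± 0.17), the soluble epoxide hydrolase, and ADAM32 (-0.72 ± 0.30 and -0.77 ± 0.33), of the ADAM protease family, passed at neither level. TUSC3, an oligosaccharyltransferase subunit at 156 ± 24 CPM in WT cells in normal glucose (SD, n = 6), was at -0.25 ± 0.10 and -0.33 ± 0.10, and passed in high glucose only. So did PNMA2 (-0.15 ± 0.08 and -0.42 ± 0.08), MICU3 (-0.32 ± 0.21 and -1.32 ± 0.23), a regulator of mitochondrial calcium uptake, ARHGEF10 (-0.97 ± 0.38 and -1.21 ± 0.40) and the protease HTRA4 (-1.01 ± 0.38 and -1.94 ± 0.43). NAT1, an arylamine acetyltransferase (-0.67 ± 0.22 and -0.51 ± 0.22), HR, a nuclear corepressor (-0.50 ± 0.08 and -0.21 ± 0.08), and EGR3, an immediate early factor (-1.33 ± 0.29 and -0.66 ± 0.32), passed in normal glucose only. For ARHGEF10, HTRA4 and EGR3 the fold change in normal glucose was beyond the arm's median of -0.91, with an SE of 0.29 or more. Leaving out 1 library ended the call of ARHGEF10 in high glucose (CF library 1, 2 or 3 or WT library 1, 4 or 5), of TUSC3 in high glucose (WT library 2 or 3) and of NAT1 in normal glucose (CF library 4, 5 or 6 or WT library 1, 2 or 3). With a term for libraries numbered 1 to 3 against 4 to 6, TUSC3, ARHGEF10 and HTRA4 in normal glucose and ADAM32, EPHX2, HR and NAT1 in high glucose passed as lower. In numbers 1 to 3 alone PDGFRL in normal (-0.30) and STC1 in high glucose (-0.34) did so. Apart from MYOM2, the genes outside the range were named after their values were seen.

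**Figure D4:**
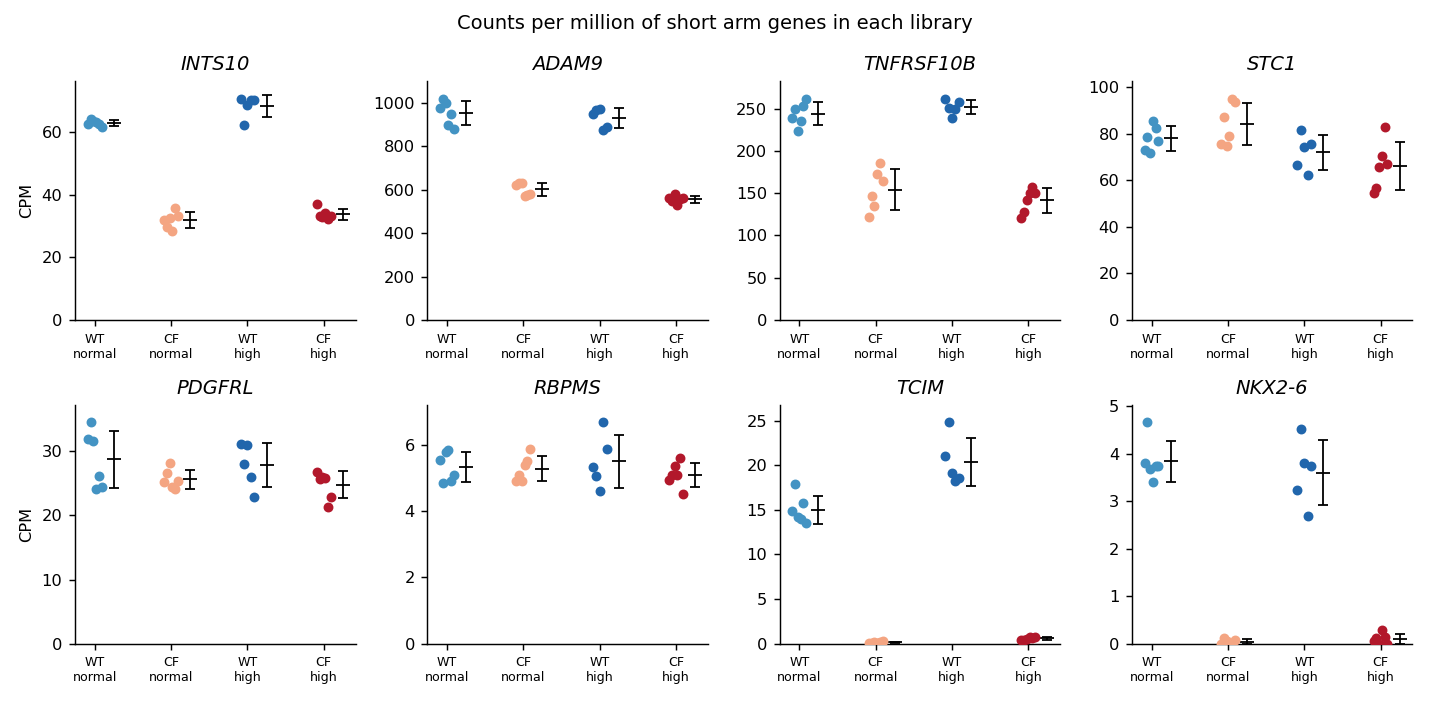
CPM of 8 short arm genes (vertical axes from 0) in each library of 4 groups (WT and CF, normal and high glucose), with mean and SD beside the points. INTS10, ADAM9 and TNFRSF10B separate the lines, STC1, PDGFRL and RBPMS overlap, and TCIM and NKX2-6 lie near 0 in CF cells.

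The contrast was alike at both glucose levels, which used separate libraries. Across the 153 genes, Pearson's r between the log2 fold changes in normal and high glucose was 0.932, a description across genes that share their libraries. TCIM, NKX2-6 and GATA4, near 0 in CF cells, lay far below the band of most genes at both levels. Such extreme genes can raise r, and its value without them was not computed. The median absolute difference between the levels was 0.11, and 9 genes differed by more than 0.5. No gene passed the test of the difference itself (the interaction in edgeR's quasi-likelihood fit), beside 0.0367% of all genes; at an unadjusted p under 0.05 there were 16 of 153 (10.5%, beside 6.79% of all genes). The lowest adjusted p with edgeR's quasi-likelihood test was for TCIM (difference 1.52 ± 0.33, adjusted p = 0.0982), followed by SLC39A14 (-0.42 ± 0.11, 0.189), REEP4 (0.28 ± 0.08, 0.269) and PPP1R3B (-0.50 ± 0.14, 0.281). TCIM, SLC39A14 and PPP1R3B passed with a block for the library number and with a term for libraries numbered 1 to 3 against 4 to 6, and SLC39A14 passed in DESeq2. PPP1R3B and SLC39A14, with PNMA2, DOCK5 and PPP2R2A, which were not named by the rule, passed in the libraries numbered 4 to 6 alone.

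**Figure D5:**
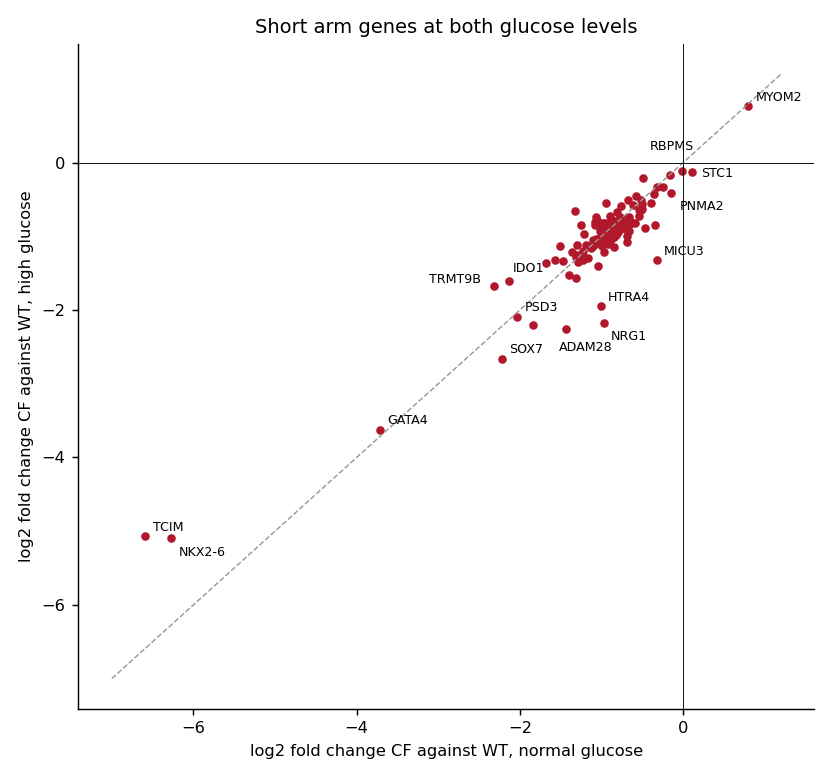
Log2 fold change of CF against WT cells in normal glucose (horizontal axis) against that in high glucose (vertical axis), 1 point per short arm gene, with a dashed line where both are equal. Most of the 153 points lie near -0.9 on both axes, with MYOM2 at the upper right and TCIM and NKX2-6 at the lower left.

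High against normal glucose changed 7 genes of the arm in WT and 25 in CF cells, a contrast that was not used to choose them. In WT cells 7 of 153 passed edgeR's quasi-likelihood test (4.58%, beside 2.96% of all genes), 4 lower and 3 higher (1.47% and 1.49% of all genes). The count was 13 with DESeq2, 17 with a block for the library number and 19 with the term for libraries numbered 1 to 3 against 4 to 6, under which CF cells had 37. The share of all genes called under these settings is not given here, so whether the rise is particular to the arm was not tested. MTUS1, a microtubule-associated tumour suppressor (17643795 to 17800917), had 123, 139 and 151 CPM in the 6 normal glucose libraries and 105, 109, 112, 104 and 119 CPM in the 5 high glucose libraries. It fell by 0.34 ± 0.06 on the log2 scale (adjusted p = 0.00248, edgeR), with no overlap. ZNF395, a zinc finger transcription factor, fell by 0.36 ± 0.07 (adjusted p = 0.00531, edgeR), from 146 ± 8.6 to 114 ± 7.7 CPM. PDLIM2, a PDZ and LIM protein that marks NF-κB for breakdown, fell by 0.35 ± 0.08 (adjusted p = 0.0105, edgeR). DUSP4, a phosphatase that switches off MAP kinases, rose by 0.51 ± 0.10 (adjusted p = 0.00447, edgeR), from 10.6 ± 0.98 to 15.1 ± 0.62 CPM.

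The other 3 WT calls were less secure. SFRP1, a secreted Wnt antagonist, rose by 0.39 ± 0.10 (adjusted p = 0.0235, edgeR), TCIM by 0.44 ± 0.11 (0.0257), and HR fell by 0.32 ± 0.08 (0.0296). SFRP1 did not pass without normal glucose library 4, 5 or 6 or high glucose library 1 or 3 (adjusted p up to 0.0926). TCIM did not pass without normal glucose library 3, 4 or 6 or high glucose library 1 or 2 (up to 0.0939). HR did not pass without normal glucose library 3, 4, 5 or 6 or high glucose library 1, 2 or 3 (up to 0.119). The count of WT calls was 4 without normal glucose library 4 or 6 or high glucose library 1, and 11 without CF normal glucose library 3, which enters through the shared spread.

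In CF cells 25 of 153 passed (16.3%, beside 8.41% of all genes), 13 lower and 12 higher (4.14% and 4.27% of all genes). MTUS1 fell by 0.47 ± 0.06 (adjusted p = 1.59e-05, edgeR), from 83.0 ± 3.6 to 59.8 ± 4.9 CPM, ZNF395 by 0.52 ± 0.07 (3.37e-05) and PDLIM2 by 0.40 ± 0.08 (0.0016), so these 3 fell in both lines. SFRP1 rose by 0.37 ± 0.09 (0.0119) and TCIM by 1.96 ± 0.31 (0.000162), the latter from 0.150 ± 0.081 to 0.595 ± 0.17 CPM (14 against 61 counts over 6 libraries each).

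The other 20 CF calls came from several roles. EXTL3, a glycosyltransferase that starts heparan sulfate chains, rose from 52.1, 54.9 and 66.0 CPM in normal to 71.5, 77.2 and 80.0 CPM in high glucose as lowest, median and highest, with no overlap, an increase of 0.42 ± 0.05 (adjusted p = 2.04e-05, edgeR). IDO1 rose by 1.18 ± 0.25 (0.00346), and FGFR1 (0.33 ± 0.08), the secreted chaperone CLU (0.33 ± 0.09), the lipid phosphatase PLPP5 (0.24 ± 0.06), ADGRA2, LEPROTL1, NEIL2, KBTBD11 and SCARA3 also rose. SLC39A14 fell from 398 ± 62 to 312 ± 23 CPM (-0.35 ± 0.07, adjusted p = 0.00358, edgeR), but not in the libraries numbered 1 to 3 alone (-0.14, adjusted p = 0.192, edgeR). PPP1R3B, which targets protein phosphatase 1 to glycogen, fell from 78.8 ± 10 to 57.4 ± 4.8 CPM (-0.46 ± 0.10, 0.00418). TNFRSF10D (-0.34 ± 0.07), STC1 (-0.35 ± 0.09), PNMA2 (-0.33 ± 0.08), MICU3 (-0.96 ± 0.23), DLC1, POMK and C8orf58 also fell, as did PCM1 (-0.22 ± 0.06), which was past the limit of 12 genes followed through the alternatives and was named after its values were seen. Leaving out 1 library ended the call of ADGRA2 (CF normal glucose library 4 or 5), DLC1 (normal 5 or high 6), LEPROTL1 (normal 4, 5 or 6 or high 3), NEIL2 (normal 2, 4, 5 or 6 or high 4 or 6) and SCARA3 (normal 4, 5 or 6 or high 1, 2 or 3). It also ended that of POMK (normal 2, 3, 5 or 6 or high 1, 2 or 3) and KBTBD11 (normal 2, 3, 4 or 6 or high 1, 2, 3 or 4). In the order named, their adjusted p values then reached 0.0673, 0.0545, 0.0544, 0.0966, 0.0712, 0.101 and 0.0867. With numbers 1 to 3 alone 20 genes were called in CF cells and with numbers 4 to 6 alone 33 were, and in WT cells 9 and 8. The shares of all genes called within these sets are not given here. In numbers 1 to 3 alone TNFRSF10D (-0.14, adjusted p = 0.281, edgeR), PNMA2 (-0.17, 0.239), MICU3 (-0.77, 0.102), C8orf58 (-0.33, 0.10), PLPP5 (0.17, 0.265), ADGRA2 (0.31, 0.127) and NEIL2 (0.13, 0.659) did not pass. In numbers 4 to 6 alone IDO1 (0.64, adjusted p = 0.248, edgeR), CLU (0.22, 0.169), FGFR1 (0.28, 0.0737) and POMK (-0.23, 0.263) did not, and KBTBD11 passed in neither set.

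The arm as a whole shifted little with glucose. Its share of counts was higher in high glucose by 0.0191 percentage points in WT cells (exact two-sided permutation test, p = 0.0216, adjusted over both lines 0.0433) and lower by 0.0153 points in CF cells (p = 0.203, adjusted 0.203). The WT difference was 0.0120 points without the 3 genes with the most counts (adjusted p = 0.325). Within numbers 1 to 3 it was 0.0183 points and within numbers 4 to 6 it was 0.0229, where so few libraries cannot pass (adjusted p = 0.20, exact permutation test). It also did not pass without WT normal glucose library 1, 2, 3 or 5 or WT high glucose library 1, 3, 4 or 5 (adjusted p up to 0.0952, exact permutation test, differences of 0.0127 to 0.0210 points). In CF cells the difference was -0.0179 points within numbers 1 to 3 and -0.0127 points within numbers 4 to 6 (adjusted p = 0.20 in each, exact permutation test).

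Polarized WT cells differed from not polarized WT cells in 87 of the 157 genes (55.4%), beside 8047 of all 16105 genes (50%). LPL is among the 87 although it met the count minimum only through the not polarized libraries. Without it 86 of 156 passed (55.1%), with 51 lower (32.7%) and 35 higher (22.4%) in the polarized cells, beside 24.0% of all genes lower and 26% higher. LGI3, kept among the 156, also reached the count minimum only with the help of the not polarized libraries (10 to 21 counts each). This contrast was not used to choose the arm. The median over the arm was -0.03 on the log2 scale, beside 0.02 for all genes. STC1 was higher in polarized cells, at 80.4 ± 5.6 CPM (SD, n = 6) against 24.7 ± 0.24 CPM (n = 3), a difference of 1.70 ± 0.08 (adjusted p = 7.56e-10, edgeR). PDGFRL (1.56 ± 0.13, adjusted p = 4.69e-07, edgeR), the scavenger receptor SCARA3 (1.30 ± 0.10, 1.96e-07) and the ubiquitin ligase RNF122 (1.23 ± 0.12, 2.01e-06) were also higher. The decoy receptor TNFRSF10D (0.57 ± 0.07, 1.78e-05) and TNFRSF10B (0.29 ± 0.07, 0.00235) were higher, while TNFRSF10A was at 0.03 ± 0.09 and did not pass.

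Genes lower in polarized WT cells included several of signalling and transcription. DUSP4 had 10.9 ± 1.0 CPM in polarized and 51.1 ± 1.8 CPM in not polarized cells (-2.23 ± 0.08, adjusted p = 1.2e-10, edgeR). SOX7 had 3.22 ± 1.1 and 23 ± 1.7 CPM (-2.82 ± 0.19, 8.23e-08), and EGR3 1.40 ± 0.19 and 5.42 ± 0.73 CPM (-1.95 ± 0.17, 5.43e-07). EIF4EBP1, the brake on cap-dependent translation, had 74.3 ± 5.9 and 174 ± 2.8 CPM (-1.23 ± 0.07, 4.84e-09). FAM167A (-1.62 ± 0.13), EPHX2 (-1.09 ± 0.14) and NRG1 (-1.03 ± 0.21) were lower too. MYOM2 (-1.08 ± 0.38, adjusted p = 0.0292, edgeR) and ADAM32 (0.90 ± 0.33, 0.0334) lost their call with a block for the library number. MYOM2 lost it without polarized library 4 or 6 or not polarized library 2 or 3 (adjusted p up to 0.182), and ADAM32 without polarized library 4 or 6 or not polarized library 1 or 3 (up to 0.158). LPL, lipoprotein lipase, reached the count minimum in the 3 not polarized libraries only, with 36 to 38 counts each against 2 to 9 in the polarized libraries, so its difference follows from the rule and is given without a test.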

How the data were processed

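Polyadenylated RNA of 26 libraries was sequenced, and per gene the authors deposited 1 table of read counts and FPKM values (fragments scaled to gene length and library size). HISAT2 and the hg38 build are named in the submitters' processing notes. For the aligner version, counting tool and strand setting, nothing is given in the sources used here. All 157 genes matched GENCODE release 29 in ID, position and strand. The deposited counts were tested with edgeR 4.0.16 (quasi-likelihood test, robust, TMM scaling, filterByExpr minimum of 10 counts) in R 4.3.3, with Benjamini-Hochberg adjustment over 16338 genes in the 23 glucose libraries and over 16105 genes in the WT libraries in normal glucose. A gene was called at an adjusted p under 0.05. Residual degrees of freedom were 19 and 7. CPM values used TMM-scaled totals.

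The share of counts was compared with exact permutation tests over libraries. Alternatives were DESeq2 1.42.0, limma 3.58.1 on log2(FPKM + 1) and log2(FPKM + 0.1) of the authors' FPKM, other filters and scalings, a block for the library number, and leaving out each library. The members, role lists and tests were chosen with earlier results of these data known. Named by rule were genes above 0 in both contrasts of the lines, the 8 lowest with at least 5 CPM in WT, the 3 with most counts in each role list, and up to 12 called genes per direction in the other contrasts. Other names were chosen after their values were seen. The fits were tested on simulated counts with the same dispersion for all genes. The simulation held no difference between libraries numbered 1 to 3 and 4 to 6, so it says nothing about how the fits handle that difference. Library numbers were not taken as pairs: the mean correlation of same-numbered libraries' deviations from their group means was 0.159 to 0.261 in the glucose and line contrasts and -0.0046 for polarization, and no contrast had every pair over 0.1. Libraries numbered 1 to 3 and 4 to 6 stood apart, and a term for this set was an alternative.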

Additional observations from a re-analysis of the deposited data

Results flagged for a closer look

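In 296 groups of values examined, 7 (2.36%) held a library far from the others of its group, against about 1 in 20 that chance gives. The median level of the short arm genes in WT library 3 in high glucose was 0.0803 on the log2 scale, above 0.0137 to 0.0319 in the other 4. EIF4EBP1, the brake on cap-dependent translation, was at 83.4 CPM in WT library 2 in normal glucose, above 68.0 to 71.8 CPM in the other 5, and at 51.5 CPM in CF library 3 in normal glucose, above 37.1 to 41.0 CPM. MSRA, which repairs oxidised methionine, was at 3.05 CPM in CF library 1 in normal glucose, above 1.33 to 1.68 CPM, and at 3.03 CPM in CF library 3 in high glucose, above 1.54 to 1.88 CPM. CSGALNACT1, which starts chondroitin sulfate chains, was at 60.9 CPM in WT library 4 in normal glucose, above 52.9 to 55.5 CPM. POMK was at 16.0 CPM in WT library 6 in normal glucose, below 20.9 to 23.3 CPM.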

How the results depend on the processing

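The median log2 fold change of CF against WT cells in normal glucose was -0.71 with limma on log2(FPKM + 1), -0.87 with log2(FPKM + 0.1) and -0.68 with log2(FPKM + 1) and no filter, and in high glucose -0.75, -0.91 and -0.71, with -0.99 in libraries numbered 4 to 6 alone; a larger pseudocount lowers the fold of weakly expressed genes by construction. Leaving out 1 library gave -0.91 to -0.89 and -0.96 to -0.93, with 140 to 143 and 142 to 146 genes called. Genes called for glucose in WT cells were 13 with DESeq2 and 19 with a term for libraries numbered 1 to 3 against 4 to 6, and 4 to 11 without 1 library. In CF cells they were 13 with log2(FPKM + 1) and no filter, and 19 to 26 without 1 library. The interaction had 3 genes with that term, 5 in libraries 4 to 6 alone, 1 with DESeq2 and 0 without any 1 library. The polarized contrast had 72 to 93 without 1 library. The cause of these changes was not tested. Counts under the alternatives are given without the share of all genes called in the same setting, and do not single out the arm. The difference in share between glucose levels in WT cells was 0.0120 points without the 3 genes with most counts, 0.0183 and 0.0229 within the number sets (added after seeing the data) and 0.0127 to 0.0236 without 1 library; in CF cells it was -0.0208 to -0.0100. With the library number as a replicate block, a pairing not taken up, 144 genes were called in normal and 148 in high glucose between the lines, 17 in WT and 33 in CF cells for glucose, 3 for the interaction and 92 for polarization; in each contrast of the lines and of glucose, 2 libraries correlated best with their own number. Of single-gene values under the alternatives, 4534 were counted as unchanged, 135 lost and 40 gained a call, and 0 called in the main edgeR fit changed sign. A change of sign in a gene without a call in that fit was counted as unchanged. Between the lines, values of RBPMS ran from -0.12 to 0.09 in normal and from -0.32 to 0.02 in high glucose. In high glucose STC1 ran from -0.34 to 0.09 and ADAM32 from -2.08 to 0.09. Few counts limit TCIM, NKX2-6, GATA4 and MYOM2.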

Other observations

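Genes of the arm that do not code for protein were also lower at the median, but fewer of them passed than of the coding genes. Of 50 with the same count minimum, 39 were tested, with medians of -1.0 and -1.10 on the log2 scale in CF against WT cells in normal and high glucose. As lower passed 27 and 26 (69.2% and 66.7%, edgeR), beside 92.8% and 94.1% of the coding genes and 13.0% and 10.6% of all genes. None passed as higher, beside 11.4% and 9.35% of all genes, and 31 and 30 had an unadjusted p under 0.05. Many of these genes were under 1 CPM in WT cells and had wide errors. AC009630.2, at 0.548 CPM in WT cells in normal glucose, was at -1.08 ± 0.52 there and did not pass. Whether low counts account for the smaller share that passed was not tested. The antisense gene TNFRSF10A-AS1 was at -0.79 ± 0.17 and -0.97 ± 0.17 (SE), and the lincRNA AC114550.1 at -2.72 ± 0.45 and -2.66 ± 0.40. LSM12P1, a processed pseudogene whose reads may be shared with its parent gene, was at 0.09 ± 0.17 and 0.46 ± 0.18. The processed pseudogenes AC138356.2 (-0.04 ± 0.28 and 0.16 ± 0.28) and RNF5P1 (-0.55 ± 0.31 and 0.26 ± 0.33) were also above 0 in high glucose. This contrast was known when the arm was chosen, and these values describe it.

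Protein partners encoded elsewhere did not share the lower level. For 18 short arm genes in 16 complexes or pairs, all were lower at both glucose levels, with medians of -0.89 and -1.01. Their 74 partners from other places in the genome had medians of 0.06 and 0.02, with 3 lower and 8 higher in normal and 3 lower and 3 higher in high glucose, beside 13.0% lower and 11.4% higher, and 10.6% and 9.35%, of all genes tested. In Integrator, INTS9 (-1.30 ± 0.10) and INTS10 (-0.98 ± 0.06) lie on the arm, while INTS8 (0.10 ± 0.06) on the long arm and INTS11 (0.00 ± 0.06) on chromosome 1 were near 0 in normal glucose. INTS4 (-0.36 ± 0.09 in normal and -0.32 ± 0.09 in high glucose) and INTS5 (-0.35 ± 0.07 and -0.22 ± 0.07) passed as lower at both levels. INTS2 (0.35 ± 0.07), INTS7 (0.16 ± 0.05) and INTS14 (0.17 ± 0.06) passed as higher in normal glucose. In the GINS replication complex GINS4 was at -1.06 ± 0.06 and GINS1 at 0.07 ± 0.07. In the kinase complex of NF-κB signalling, IKBKG, partner of IKBKB, was at -0.01 ± 0.15 in normal and -0.63 ± 0.16 in high glucose. The partners were listed with results of these data known.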
